A study of Arabidopsis thaliana with 48 samples.

Results

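The comparison described here set leaves of Arabidopsis thaliana labelled day 0.25 against leaves labelled day 0.083, 2 harvests of one diurnal series. Its members are the 8 sequencing samples of these 2 groups, 2 lanes of each of 2 biological replicates a group, out of 48 samples in the whole series and 24 in the diurnal series. They were chosen by their labels alone, so no measured value entered the choice. In both groups the plants were of the ecotype Columbia and 6 weeks old. Both had stood for 2 weeks at a photon flux density of 250 µmol per square metre per second, with a 10 h photoperiod, 23 °C days and 5 °C nights. No mutant and no agent was used in either group. Per the labels, RNA was extracted separately from 4 to 6 rosettes per time and then combined at random into the replicates, so each replicate is a pool and p-values measure the spread between pools.

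Where day 0 lies is not stated in the labels, nor which of the 2 harvested cycles a sample comes from. A reading of this pair as late night and dawn therefore rests on the clock genes described below and not on a stated hour. Whether the replicates of a time came from 1 harvest or from several is likewise not stated, so time of day and anything else particular to its harvest cannot be told apart. Total counts were 32662539 and 29687826 in the day 0.25 replicates, and 35859304 and 35096614 in the day 0.083 replicates. Levels are given as CPM, counts relative to library size, after TMM scaling of the 12 diurnal replicates. Changes are log2 ratios of day 0.25 over day 0.083 from edgeR's quasi-likelihood test, with a Benjamini-Hochberg adjusted p under 0.05 as the threshold. Leaf markers were plentiful: the small subunit gene RBCS1A stood at 15407 and 13171 CPM at day 0.25, against 12329 and 11807 CPM at day 0.083. Of 3 seed markers, all 3 had no count in the 4 replicates, and the summed level of 3 flower markers was 1.32 to 1.85 CPM at day 0.25, against 1.74 to 1.89 CPM at day 0.083. The summed level of 3 root markers was 33.2 to 42.5 CPM at day 0.25, against 43.1 to 44.7 CPM at day 0.083, mostly from SCR, which leaves are also known to express, with PYK10 at 2.49 to 3.63 CPM at day 0.25, against 9.48 to 12 CPM at day 0.083, and the root hair gene EXPA7 at 0.

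The plant circadian clock is a set of repressors and activators that follow each other through the day. CCA1 and LHY, a pair of MYB-like factors known to peak around dawn, repress genes of the evening, and the pseudo-response regulators PRR9, PRR7, PRR5 and TOC1 repress CCA1 and LHY in turn. The evening complex of ELF3, ELF4 and LUX acts at night, and the LNK proteins are coactivators that work with RVE proteins of the CCA1 family. In leaves this clock sets the daily course of genes for photosynthesis, cold tolerance, defence and growth.

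Of 20958 loci tested, 1598 passed the threshold (7.62%), 939 of them higher at day 0.25 (4.48%) and 659 lower (3.14%). At least a doubling was reached by 206 of the higher loci (0.983% of those tested), and at least a halving by 229 of the lower ones (1.09%). Under scaling to total counts alone the median of all loci shifted to a log2 change of -0.13, and the calls split into 453 higher and 1137 lower, so the share of calls that were higher was 28.5% in place of 58.8%. No called locus turned its sign under that scaling. The number of calls depended on each library: it was 981 without replicate 1 of day 0.25, 267 without replicate 2 of day 0.25, 373 without replicate 1 of day 0.083 and 267 without replicate 2 of day 0.083. In those fits the lone replicate is assumed to vary like the other groups.

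**Figure D1:**
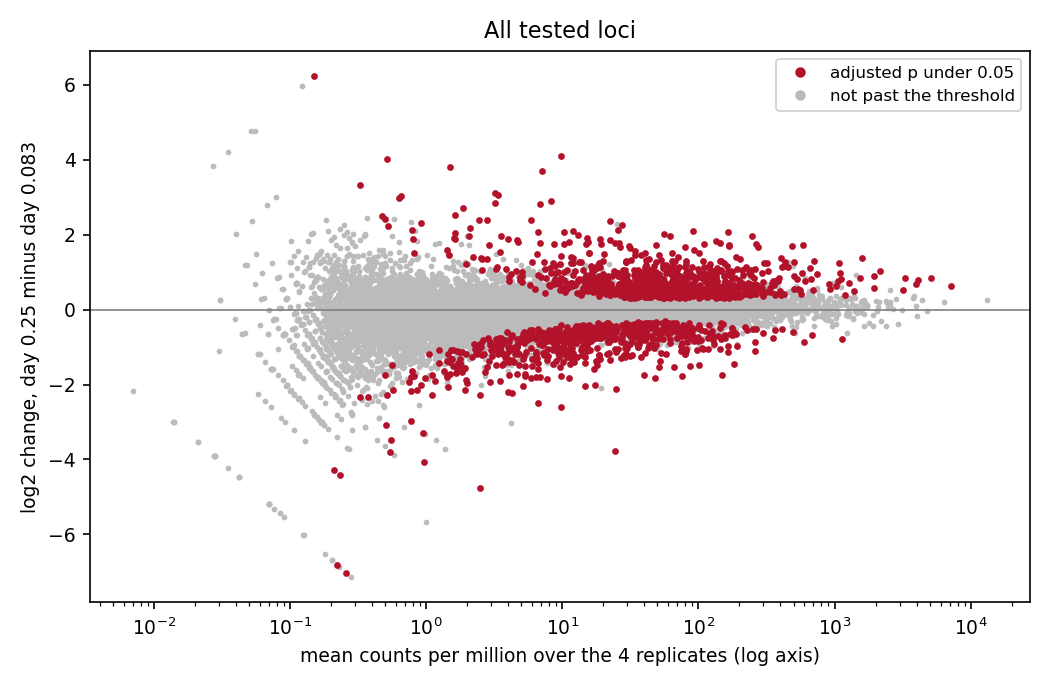
Log2 change of every tested locus, day 0.25 minus day 0.083, against its mean level over the 4 replicates in CPM on a log axis. Red points are the 1598 loci past the threshold, which lie on both sides of 0 and mostly at levels above 1 CPM, and grey points are the other loci.

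Of 14 tested loci of the morning clock list 9 rose, 1 fell and 4 did not pass, beside 4.48% and 3.14% of all loci, and the median log2 change of the list was 0.77, beside -0.003 over all loci. Without single replicates the count of members that rose was 8 and 5 (leaving out replicate 1 or 2 of day 0.25) and 5 and 4 (leaving out replicate 1 or 2 of day 0.083). LHY, LNK2, LNK3, LNK4 and RVE2 kept their calls in all 4 of those fits.

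CCA1 stood at 892 and 923 CPM at day 0.25, against 429 and 414 CPM at day 0.083, a rise of 1.11 on the log2 scale (SE 0.18, edgeR adjusted p = 0.00584). LHY stood at 601 and 625 CPM at day 0.25, against 255 and 250 CPM at day 0.083, a rise of 1.28 (SE 0.10, adjusted p = 0.000323). Both genes had close replicates and groups that did not overlap, and both had their highest mean of all 6 diurnal times at day 0.25. The call of CCA1 was lost without replicate 2 of day 0.25 and without either day 0.083 replicate, with an adjusted p of up to 0.0703.

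All 4 LNK genes rose. LNK4 had 141 and 152 CPM at day 0.25, against 34.9 and 33.1 CPM at day 0.083, a log2 change of 2.11 (SE 0.21, edgeR adjusted p = 0.0007). LNK3 had 198 and 221 CPM at day 0.25, against 59.8 and 57 CPM at day 0.083, a log2 change of 1.84 (SE 0.20, adjusted p = 0.00109). LNK2 changed by 1.36 (SE 0.15, adjusted p = 0.00131), with 287 and 294 CPM at day 0.25 against 116 and 110 CPM at day 0.083. In each of these genes both day 0.25 replicates lay well above both day 0.083 replicates. LNK1 changed by 0.93 (SE 0.14, adjusted p = 0.00404), with replicates of 47.3 and 50.3 CPM at day 0.25 and 26.4 and 24.9 CPM at day 0.083, and missed the threshold without replicate 2 of day 0.083 (adjusted p = 0.0574). LNK1 had its highest mean of the 6 times, 215 CPM, at day 0.375, and LNK3 its highest, 209 CPM, at day 0.25.

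The RVE genes, which encode MYB-like factors related to CCA1, went several ways. RVE2 fell: it had 72.1 and 63.6 CPM at day 0.25, against 235 and 221 CPM at day 0.083, a log2 change of -1.75 (SE 0.13, edgeR adjusted p = 0.000323). RVE4, a partner of LNK proteins, rose by 0.46 (SE 0.09, adjusted p = 0.0119), with 142 and 148 CPM at day 0.25 against 110 and 101 CPM at day 0.083. AT5G52660 and AT4G01280, annotated as members of the same protein family, changed by 0.86 (adjusted p = 0.0181) and 0.53 (adjusted p = 0.0375). Of the 4 fits without a replicate, RVE4 and AT5G52660 kept their calls in 1, and AT4G01280 kept its call in none, nor under total counts (adjusted p = 0.132). RVE8, an activator of evening genes, had 63.2 and 65.6 CPM at day 0.25, against 42.7 and 44.7 CPM at day 0.083, and narrowly missed the threshold (log2 change 0.56, adjusted p = 0.0514). ASG4, which is also known as RVE3, had a log2 change of 0.69 (adjusted p = 0.101). RVE1 overlapped between groups, at 233 and 197 CPM at day 0.25 and 223 and 218 CPM at day 0.083 (log2 change -0.03, adjusted p = 0.909). RVE7, at 6.07 and 5.97 CPM at day 0.25 against 3.8 and 5.85 CPM at day 0.083, had an adjusted p of 0.431, and its transcript matches a second locus at 99.8% identity over 615 bases, so its level is uncertain.

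In the evening clock list 5 of 10 tested loci fell, 1 rose and 4 did not pass, beside 3.14% and 4.48% of all loci, with a median log2 change of -0.38. The list's name is loose, since its members had their highest means at different times. PRR9 was highest at day 0.375, PRR7, PRR3 and TCP21 at day 0.625, and the others at day 0.75 or 0.916. Without single replicates the count of members that fell was 3 and 2 (replicate 1 or 2 of day 0.25) and 2 and 1 (replicate 1 or 2 of day 0.083), and PRR3 and PRR9 kept their calls in all 4 fits.

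PRR9, the first of the pseudo-response regulators to be expressed in the day, was the riser of this list. It had 3.63 and 4.61 CPM at day 0.25, against 0.759 and 0.807 CPM at day 0.083, a log2 change of 2.38 (SE 0.27, edgeR adjusted p = 0.00131). Both day 0.25 values were still far below its mean of 154 CPM at day 0.375. Its transcript shares 440 bases at 99.3% identity with another locus, so reads could have been split between them. PRR7 and PRR5, which follow PRR9, did not pass: PRR7 had 55.5 and 61.8 CPM at day 0.25, against 52.1 and 55.5 CPM at day 0.083 (adjusted p = 0.502, log2 change 0.12, which turned just below 0 under total counts). PRR5 had 50.6 and 56.2 CPM at day 0.25, against 65.7 and 73.8 CPM at day 0.083 (adjusted p = 0.247). TOC1, the last of that series, had 106 and 117 CPM at day 0.25, against 119 and 130 CPM at day 0.083 (adjusted p = 0.42).

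PRR3, a partner of TOC1, fell to 6.07 and 6.81 CPM at day 0.25, against 13.6 and 14.8 CPM at day 0.083, a log2 change of -1.15 (SE 0.16, edgeR adjusted p = 0.00271). All 3 genes of the evening complex fell. ELF4 had 2.34 and 3.22 CPM at day 0.25, against 7.76 and 8.07 CPM at day 0.083 (log2 change -1.51, SE 0.25, adjusted p = 0.00662). LUX had 1.68 and 1.61 CPM at day 0.25, against 3.07 and 3.23 CPM at day 0.083 (log2 change -0.93, SE 0.21, adjusted p = 0.0224). ELF3 showed the smallest fall of the 3, to 26.4 and 25.7 CPM at day 0.25, against 33.1 and 34.7 CPM at day 0.083 (log2 change -0.38, SE 0.08, adjusted p = 0.0182). BOA, a close relative of LUX, had 2.21 and 1.98 CPM at day 0.25, against 4.67 and 4.15 CPM at day 0.083 (log2 change -1.07, SE 0.21, adjusted p = 0.0133), and a neighbouring gene overlaps it. TCP21, a factor known to bind the CCA1 promoter, did not pass (adjusted p = 0.744). The calls of ELF3 and LUX were lost whichever replicate was left out, that of ELF4 without replicate 2 of day 0.083, and that of BOA in 3 of the 4 fits.

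**Figure D2:**
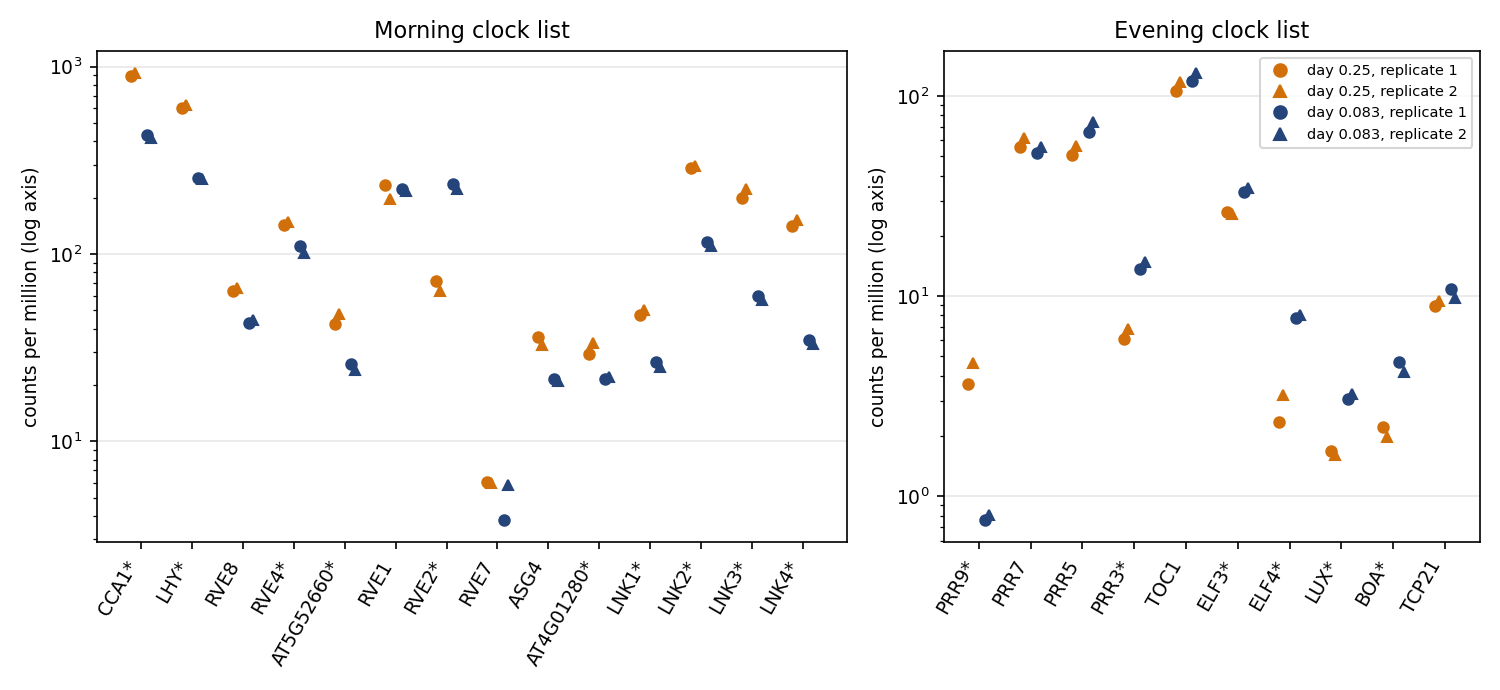
Level of every locus of the morning and evening clock lists in CPM on a log axis, with day 0.25 (orange) left of day 0.083 (blue), circles for replicate 1 and triangles for replicate 2. An asterisk marks the 10 morning and 6 evening loci past the threshold. Orange and blue points also do not overlap in some loci without an asterisk, such as RVE8 and TOC1.

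Promoters of the 3 called clock genes with the 2 largest rises and the largest fall are shown because the DNA elements of the clock are defined by short letter strings. Each is the 250 bases before the gene start on the gene's own strand, from the RefSeq assembly TAIR10.1. Capitals mark the evening element AAAATATCT, the CCA1-binding site AAAAATCT, the G-box CACGTG and the cold element CRT/DRE (GCCGAC or ACCGAC), on either strand.
PRR9, chr2:19232357-19232606, plus strand: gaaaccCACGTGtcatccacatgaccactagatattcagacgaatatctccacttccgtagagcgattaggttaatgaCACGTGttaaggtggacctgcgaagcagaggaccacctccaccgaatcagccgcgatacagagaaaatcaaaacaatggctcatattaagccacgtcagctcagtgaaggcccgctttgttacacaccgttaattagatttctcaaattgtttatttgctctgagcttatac
LNK4, chr5:2166870-2167119, plus strand: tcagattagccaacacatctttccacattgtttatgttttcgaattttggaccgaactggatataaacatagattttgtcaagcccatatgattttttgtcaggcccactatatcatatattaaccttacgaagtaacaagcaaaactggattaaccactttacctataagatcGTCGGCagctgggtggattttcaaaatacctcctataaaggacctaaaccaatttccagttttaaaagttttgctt
RVE2, chr5:14753089-14753338, minus strand: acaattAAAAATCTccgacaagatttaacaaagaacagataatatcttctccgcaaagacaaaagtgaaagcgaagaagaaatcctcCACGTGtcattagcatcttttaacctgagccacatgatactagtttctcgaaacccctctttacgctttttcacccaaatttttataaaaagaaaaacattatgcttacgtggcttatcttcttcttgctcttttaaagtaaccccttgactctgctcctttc
PRR9 held 2 G-boxes in this stretch, and the searched window, which ran 50 bases past the gene start, held 1 evening element on the other strand, 27 bases into the gene. LNK4 held 1 CRT/DRE, and RVE2 held 1 CCA1-binding site and 1 G-box.

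The same search over the windows of all tested loci gave different shares for the loci that rose and those that fell, described here without a test. The evening element was in 3.64% of 934 windows of loci that rose, 7.29% of 658 windows of loci that fell and 3.09% of all 20752 windows. Among loci at least halved its share was 10.1%. The G-box was in 15.7% of windows of risers, 6.53% of fallers and 8.71% of all. CRT/DRE was in 20.1% of risers, 5.32% of fallers and 9.74% of all, and the abscisic acid element ACGTGT, whose letters can overlap a G-box, in 21.5%, 10.6% and 13.2%. The telo-box AAACCCTA was in 6.85%, 2.43% and 5.51%, and the I-box GATAAG in 12.6%, 19.6% and 14.9%. Shares of the CCA1-binding site (7.39%, 6.99% and 8%) and of TATCCA (16.8%, 18.7% and 16.4%) lay close to each other. A match is a run of letters and not a shown binding site.

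Genes of photoperiodic flowering that act downstream of the clock changed in both directions. Of 12 tested loci 2 were higher and 2 lower, beside 4.48% higher and 3.14% lower of all loci. Under total counts alone none of the list was higher and 2 were lower. GI, which stabilises an evening photoreceptor and acts upstream of CO, had 20.6 and 22.7 CPM at day 0.25, against 41.9 and 39.7 CPM at day 0.083 (log2 change -0.92, SE 0.12, edgeR adjusted p = 0.00247). Its day 0.25 mean of 21.6 CPM was the lowest of the 6 times, beside 223 CPM at day 0.75. CO, the flowering-time factor that acts on FT, had 9.69 and 11.1 CPM at day 0.25, against 18.7 and 21.4 CPM at day 0.083 (log2 change -0.94, SE 0.19, adjusted p = 0.0144), and genes on the other strand overlap it. CDF3, a Dof-type repressor of CO, rose to 213 and 205 CPM at day 0.25, against 125 and 129 CPM at day 0.083 (log2 change 0.72, SE 0.19, adjusted p = 0.0423). AT1G69570 changed by 0.77 (adjusted p = 0.0228). FT, the mobile flowering signal, was too low to be tested, at 0.066 and 0.0366 CPM at day 0.25 and 0.0563 and 0.111 CPM at day 0.083. GI kept its call without any one replicate, whereas CO, CDF3 and AT1G69570 lost theirs in all 4 such fits.

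**Figure D3:**
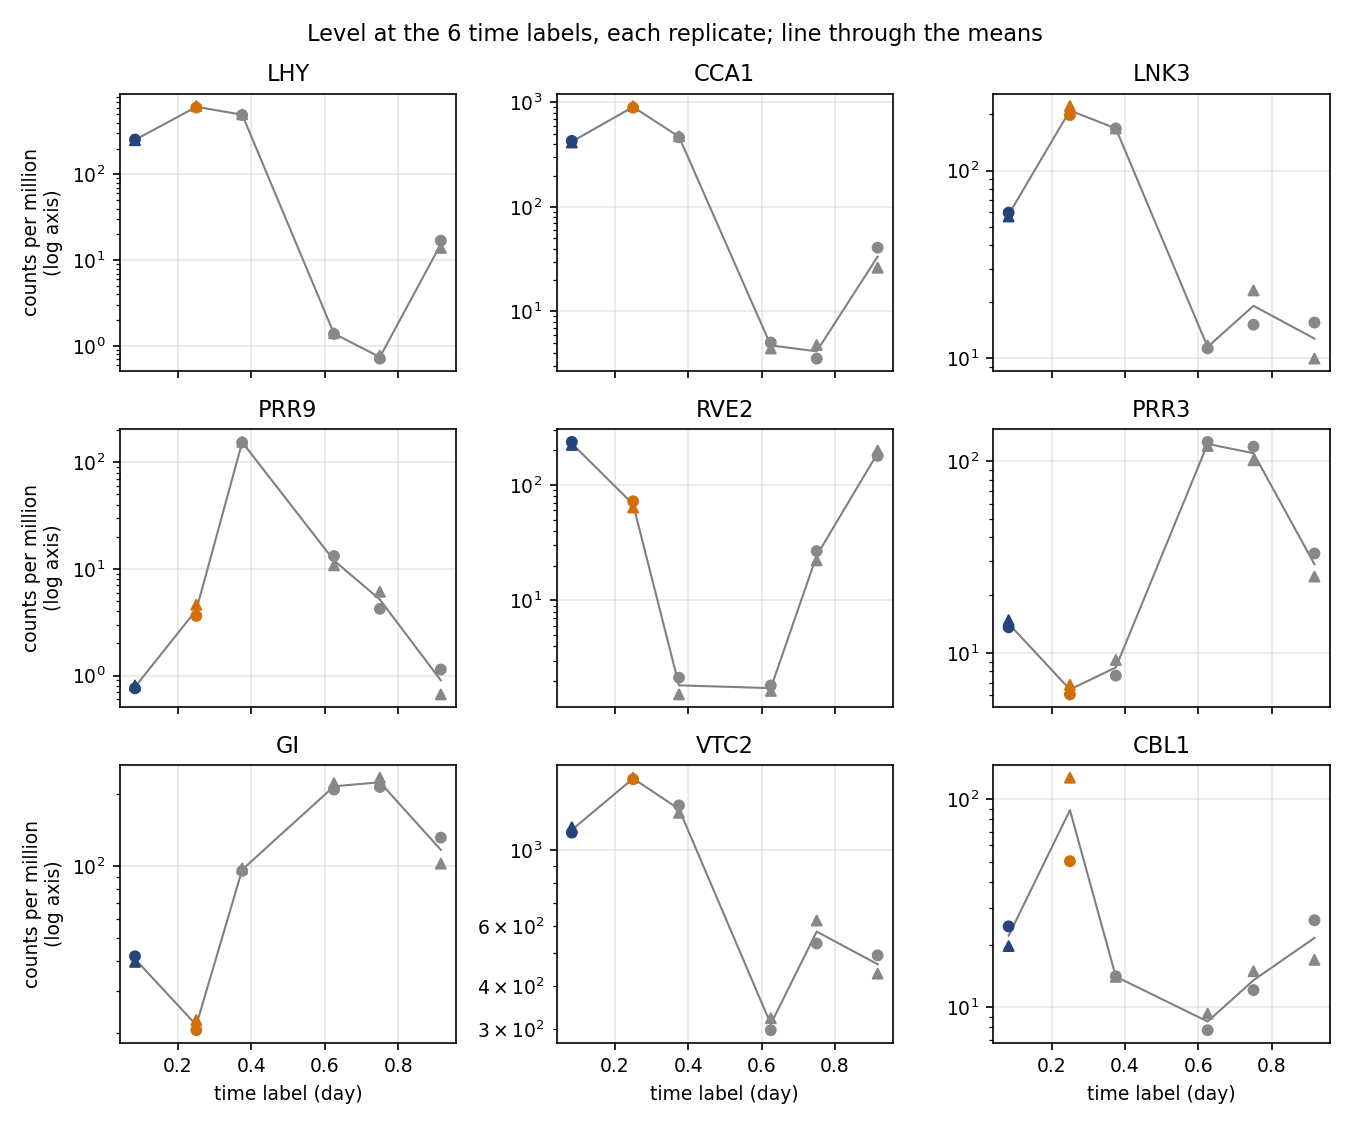
Level of 9 genes at the 6 diurnal time labels in CPM on log axes, with circles for replicate 1, triangles for replicate 2 and a line through the means. Orange marks day 0.25 and blue day 0.083: LHY, CCA1, LNK3, VTC2 and CBL1 have their highest mean at day 0.25, PRR3 and GI their lowest, PRR9 rises further by day 0.375 and RVE2 falls further.

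Of 19 tested light signalling loci 8 were higher at day 0.25, none was lower and 11 did not pass, beside 4.48% higher and 3.14% lower of all loci, with a median log2 change of 0.33 over the list. Without single replicates the count was 5 and 4 (replicate 1 or 2 of day 0.25) and 2 and 2 (replicate 1 or 2 of day 0.083), and under total counts alone it was 4. BBX24, a B-box protein that restrains HY5, had 286 and 271 CPM at day 0.25, against 145 and 148 CPM at day 0.083 (log2 change 0.93, SE 0.12, edgeR adjusted p = 0.00215). BBX18, another B-box protein, had 225 and 207 CPM at day 0.25, against 112 and 116 CPM at day 0.083 (log2 change 0.92, SE 0.16, adjusted p = 0.00704). SPA3, which works with the ubiquitin ligase COP1 in repressing light responses, had 224 and 228 CPM at day 0.25, against 148 and 146 CPM at day 0.083 (log2 change 0.62, SE 0.09, adjusted p = 0.00276). ELIP2, an early light-induced protein of the thylakoid, had 251 and 252 CPM at day 0.25, against 124 and 165 CPM at day 0.083 (log2 change 0.80, SE 0.19, adjusted p = 0.0286). The more abundant ELIP1 did not pass, at 1230 and 1411 CPM at day 0.25 against 1051 and 1150 CPM at day 0.083 (log2 change 0.26, SE 0.47, adjusted p = 0.798). COP1, SPA2, SPA4 and BBX19 were the other 4 that passed, with log2 changes of 0.42 to 0.60. HY5, the factor that promotes light-grown development, had 13 and 13.4 CPM at day 0.25, against 14.5 and 15.5 CPM at day 0.083, and did not pass (adjusted p = 0.465). BBX24 and SPA3 kept their calls without any one replicate, and ELIP2 lost its own in all 4 fits.

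Among the PIF genes, which encode bHLH factors that promote growth, directions differed. PIF4 had 6.27 and 5.67 CPM at day 0.25, against 12.1 and 11.2 CPM at day 0.083 (log2 change -0.96, SE 0.15, edgeR adjusted p = 0.00414). PIF5 had 69.2 and 68.5 CPM at day 0.25, against 40.4 and 39.7 CPM at day 0.083 (log2 change 0.78, SE 0.11, adjusted p = 0.00247). PIF7 had 37.6 and 39.4 CPM at day 0.25, against 21.5 and 23.9 CPM at day 0.083 (log2 change 0.76, SE 0.12, adjusted p = 0.0057). So the day 0.25 replicates were low for PIF4 and high for the other two, with no overlap in any of them. Beside 4.48% higher and 3.14% lower of all loci, the PIF and growth list had 2 of 14 tested loci that rose and 1 that fell. The other 11 did not pass, and the list's median log2 change was -0.36. The number that fell was 4 under total counts, 5 with DESeq2 and 6 with day 0.916 left out of the fit. PIF5 kept its call without any one replicate, PIF4 lost it without replicate 2 of day 0.25 (adjusted p = 0.0568), and PIF7 lost it in 2 of the 4 fits. Expansins, proteins that loosen cell walls, fell in 4 of 10 tested cases and rose in none, beside 3.14% lower and 4.48% higher of all loci, with a median log2 change of -0.48. EXPA8 had 2.18 and 2.12 CPM at day 0.25, against 7.62 and 6.63 CPM at day 0.083 (log2 change -1.73, SE 0.25, adjusted p = 0.0033). EXPA4 had 26 and 22.5 CPM at day 0.25, against 45.3 and 50.9 CPM at day 0.083 (log2 change -0.99, SE 0.12, adjusted p = 0.00197). EXPA8 and EXPA4 kept their calls without any one replicate, whereas EXPA11 (log2 change -1.21) kept its own in 1 of 4 fits and EXPA15 (-0.58) in none.

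Of 18 light-harvesting loci 2 were higher and none lower, beside 4.48% higher and 3.14% lower of all loci. LHCB2.1, an antenna protein of photosystem II, had 974 and 841 CPM at day 0.25, against 310 and 241 CPM at day 0.083 (log2 change 1.72, SE 0.33, edgeR adjusted p = 0.0118). LHCB2.3 had 55.8 and 64.3 CPM at day 0.25, against 25.2 and 16.6 CPM at day 0.083 (log2 change 1.52, SE 0.38, adjusted p = 0.034). The transcripts of these genes are near copies of others of the family, so reads may be split between them, and each call was lost in at least 3 of the 4 fits without a replicate. The other 16 tested loci of the list had log2 changes between -0.92 and 1.16, and the list's median was -0.03. In chlorophyll synthesis 2 of 21 tested loci rose and none fell, beside 4.48% higher and 3.14% lower of all loci. CAO, which makes chlorophyll b, had 144 and 125 CPM at day 0.25, against 65.5 and 61.8 CPM at day 0.083 (log2 change 1.08, SE 0.12, adjusted p = 0.00109), a call that held without any one replicate. GUN4, an activator of magnesium chelatase, had 89.3 and 59.9 CPM at day 0.25, against 36.5 and 33.2 CPM at day 0.083 (log2 change 1.1, SE 0.29, adjusted p = 0.0432), a call lost in all 4 such fits. Of 6 plastid sigma factors, which direct the chloroplast RNA polymerase to its promoters, SIG5 and SIG1 rose, beside 4.48% of all loci. SIG5 had 162 and 177 CPM at day 0.25, against 78 and 68.5 CPM at day 0.083 (log2 change 1.21, SE 0.21, adjusted p = 0.00699). SIG1 had 166 and 175 CPM at day 0.25, against 102 and 96.3 CPM at day 0.083 (log2 change 0.78, SE 0.09, adjusted p = 0.00162). SIG1 kept its call without any one replicate and SIG5 in 2 of 4 fits. Of 10 tested photoreceptor loci 1 rose, 1 fell and 8 did not pass, beside 4.48% higher and 3.14% lower of all loci. The list's median log2 change was 0.14. PHOT2, a blue-light receptor of chloroplast movement, rose by 0.48 (edgeR adjusted p = 0.0123) and PHYD fell by 0.48 (adjusted p = 0.0499). Of the 4 fits without a replicate, the call of PHOT2 held in 1 and that of PHYD in none.

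In the lists of starch breakdown, starch synthesis, sugar starvation and nitrate assimilation 1 or 2 loci each passed, beside 7.62% of all loci. These counts, from the fit of all 6 groups, are small and lie near the background. The median log2 change was 0.24 in starch synthesis, -0.41 in sugar starvation and -0.39 in nitrate assimilation, beside -0.003 over all loci. Fitting only the 2 groups called 2 starch breakdown and 6 starch synthesis loci higher. It called 3 sugar starvation loci higher and 5 lower, and 7 nitrate loci lower, beside 1551 higher and 1334 lower of all 20198 loci tested there. Of 20 loci of starch breakdown 1 was higher, BAM3, the main chloroplast beta-amylase of leaves. BAM3 had 8069 and 9393 CPM at day 0.25, against 5621 and 5579 CPM at day 0.083 (log2 change 0.64, SE 0.16, edgeR adjusted p = 0.032), and overlapping genes lie on the other strand. The list's median log2 change was 0.01. Of 16 loci of starch synthesis the starch synthase SS2 rose, with 99.8 and 105 CPM at day 0.25 against 66.9 and 62.5 CPM at day 0.083 (log2 change 0.66, SE 0.10, adjusted p = 0.0038). Among 15 sugar starvation loci TPS11, a trehalose phosphate synthase family member, had 47.4 and 58.9 CPM at day 0.25, against 34 and 25.1 CPM at day 0.083 (log2 change 0.84, adjusted p = 0.0181). GASA6, a small peptide gene of the same list, had 3.66 and 3.04 CPM at day 0.25, against 14.6 and 9.75 CPM at day 0.083 (log2 change -1.86, adjusted p = 0.0258). The starvation marker DIN6, an asparagine synthase gene, had 2.44 and 1.43 CPM at day 0.25, against 4.56 and 7.52 CPM at day 0.083, and did not pass (adjusted p = 0.0683). In nitrate assimilation 2 of 18 tested loci fell and none rose, beside 3.14% lower and 4.48% higher of all loci. NRT2.1, a high-affinity nitrate transporter, had 0.528 and 0.22 CPM at day 0.25, against 2.33 and 1.34 CPM at day 0.083 (log2 change -2.27, SE 0.59, adjusted p = 0.0402), and shares sequence with a close copy. NRT1.1, a transporter that also senses nitrate, had 236 and 203 CPM at day 0.25, against 283 and 345 CPM at day 0.083 (log2 change -0.52, adjusted p = 0.0449). The calls of BAM3, GASA6, NRT2.1 and NRT1.1 were lost in all 4 fits without a replicate, that of TPS11 in 2 and that of SS2 in 1.

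Ascorbate (vitamin C) is the subject of the series, and 1 of 13 tested loci of its synthesis, VTC2, passed the threshold between these times, a share near the 7.62% of all loci. VTC2 encodes GDP-L-galactose phosphorylase, the enzyme that the series is about. VTC2 had 1612 and 1629 CPM at day 0.25, against 1126 and 1167 CPM at day 0.083, a 1.41-fold rise (log2 change 0.50, SE 0.12, edgeR adjusted p = 0.0294). The groups did not overlap, and the day 0.25 mean of 1620 CPM was the highest of the 6 times, beside 310 CPM at day 0.625. The call was lost whichever replicate was left out, with adjusted p between 0.099 and 0.182, and under total counts (log2 change 0.37, adjusted p = 0.107). VTC5, the second gene for the same enzyme, overlapped between groups, with 25 and 20.1 CPM at day 0.25 and 25.1 and 23.1 CPM at day 0.083 (log2 change -0.10, adjusted p = 0.673). The other 11 tested loci of ascorbate synthesis did not pass. Log2 changes in this list ran from -1.12 to 0.68, with a median of 0.04. Under total counts alone 1 locus of the list was lower and none higher. GME had 406 and 418 CPM at day 0.25, against 359 and 363 CPM at day 0.083 (adjusted p = 0.316). VTC1 had 262 and 272 CPM at day 0.25, against 215 and 226 CPM at day 0.083 (adjusted p = 0.137). Of 17 tested loci of ascorbate recycling and use, APX1, the cytosolic ascorbate peroxidase, passed, at 1314 and 1414 CPM at day 0.25 against 1007 and 1058 CPM at day 0.083 (log2 change 0.40, SE 0.11, adjusted p = 0.0463), a call that no fit without a replicate kept.

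Of 22 tested loci of the cold response list 9 rose, 2 fell and 11 did not pass, beside 4.48% higher and 3.14% lower of all loci, with a median log2 change of 0.44. Under total counts alone 6 rose. GOLS3, a galactinol synthase of raffinose synthesis, had 2108 and 2478 CPM at day 0.25, against 938 and 843 CPM at day 0.083 (log2 change 1.36, SE 0.30, edgeR adjusted p = 0.0228). RD29A, a classical cold and drought marker, had 5780 and 7314 CPM at day 0.25, against 3866 and 3379 CPM at day 0.083 (log2 change 0.85, SE 0.22, adjusted p = 0.0371). GOLS3 and RD29A lost their calls whichever replicate was left out, at log2 changes of 1.24 to 1.48 and 0.67 to 1.01. Under total counts alone RD29A did not pass (log2 change 0.73, edgeR adjusted p = 0.0733). COR15A, a protein that protects chloroplast membranes, had 4722 and 4954 CPM at day 0.25, against 3157 and 2903 CPM at day 0.083 (log2 change 0.67, SE 0.12, adjusted p = 0.00931). The other risers were COR15B, COR47, ERD10, KIN2, COR413-PM1 and RAV1, with log2 changes of 0.57 to 0.85. CBF1, CBF2 and CBF3, known to activate many cold-regulated genes, did not pass, with adjusted p of 0.556, 0.585 and 0.641. CBF2 for example had 56.4 and 54 CPM at day 0.25, against 47.7 and 47.3 CPM at day 0.083. The falling members were COR27, a cold-regulated gene that feeds back on the clock, and AT4G33980. COR27 had 30 and 31.9 CPM at day 0.25, against 59.8 and 56.7 CPM at day 0.083 (log2 change -0.91, SE 0.14, adjusted p = 0.00433). AT4G33980 had 6.4 and 7.43 CPM at day 0.25, against 16.9 and 17.5 CPM at day 0.083 (log2 change -1.31, SE 0.22, adjusted p = 0.00725). The count of risers depended on each library: it was 4 and 1 without replicate 1 or 2 of day 0.25, and 1 and 0 without replicate 1 or 2 of day 0.083. Of the 22 members, 18 were higher in replicate 2 than in replicate 1 of day 0.25, with a median log2 ratio of 0.21 between them, beside -0.00 over all tested loci. The part of this in the result was not tested.

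Jasmonate is a lipid-derived hormone of wounding and defence, and JAZ proteins repress its responses while being induced by them. Of 20 tested loci of the jasmonate list 12 rose and none fell, beside 4.48% higher and 3.14% lower of all loci, with a median log2 change of 0.87. Under total counts alone 8 rose. JAZ7 had 11.2 and 17.8 CPM at day 0.25, against 1.8 and 2.06 CPM at day 0.083 (log2 change 2.91, SE 0.36, edgeR adjusted p = 0.00185). JAZ5 had 26.3 and 54.9 CPM at day 0.25, against 11.3 and 12.1 CPM at day 0.083 (log2 change 1.79, SE 0.29, adjusted p = 0.00553). JAZ9 had 369 and 529 CPM at day 0.25, against 192 and 185 CPM at day 0.083 (log2 change 1.25, SE 0.17, adjusted p = 0.0023). In each of them replicate 2 of day 0.25 was the highest of the 4 replicates, and replicate 1 lay above both day 0.083 replicates. LOX4, a lipoxygenase of the first step of jasmonate synthesis, had 70.6 and 117 CPM at day 0.25, against 35.6 and 30.7 CPM at day 0.083 (log2 change 1.5, SE 0.25, adjusted p = 0.00671). MYC2, the transcription factor that JAZ proteins hold in check, had 73.6 and 149 CPM at day 0.25, against 54.1 and 55.5 CPM at day 0.083 (log2 change 1.02, SE 0.26, adjusted p = 0.0396). VSP2, a storage protein that accumulates late in the response, had 48.9 and 40.5 CPM at day 0.25, against 44.1 and 47.2 CPM at day 0.083, and did not pass (adjusted p = 0.982).

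The 2 pools of day 0.25 differed in these genes. Replicate 2 exceeded replicate 1 in 14 of 20 jasmonate loci, with a median log2 ratio of 0.39, beside a median of 0.03 between the day 0.083 replicates. Without replicate 2 of day 0.25 the list had 3 risers, and without replicate 1 it had 11. It had 4 and 2 risers without replicate 1 or 2 of day 0.083. JAZ7 and JAZ9 kept their calls in all 4 fits, JAZ5 and LOX4 in 2. Over all 206 loci at least doubled, 96 (46.6%) were at least 1.5 times higher in replicate 2 than in replicate 1 of day 0.25, and 3 were that much lower, beside 5.13% of all tested loci that were that much higher. The labels do not record which plants went into which pool, and the part of this difference in the result was not tested.

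**Figure D4:**
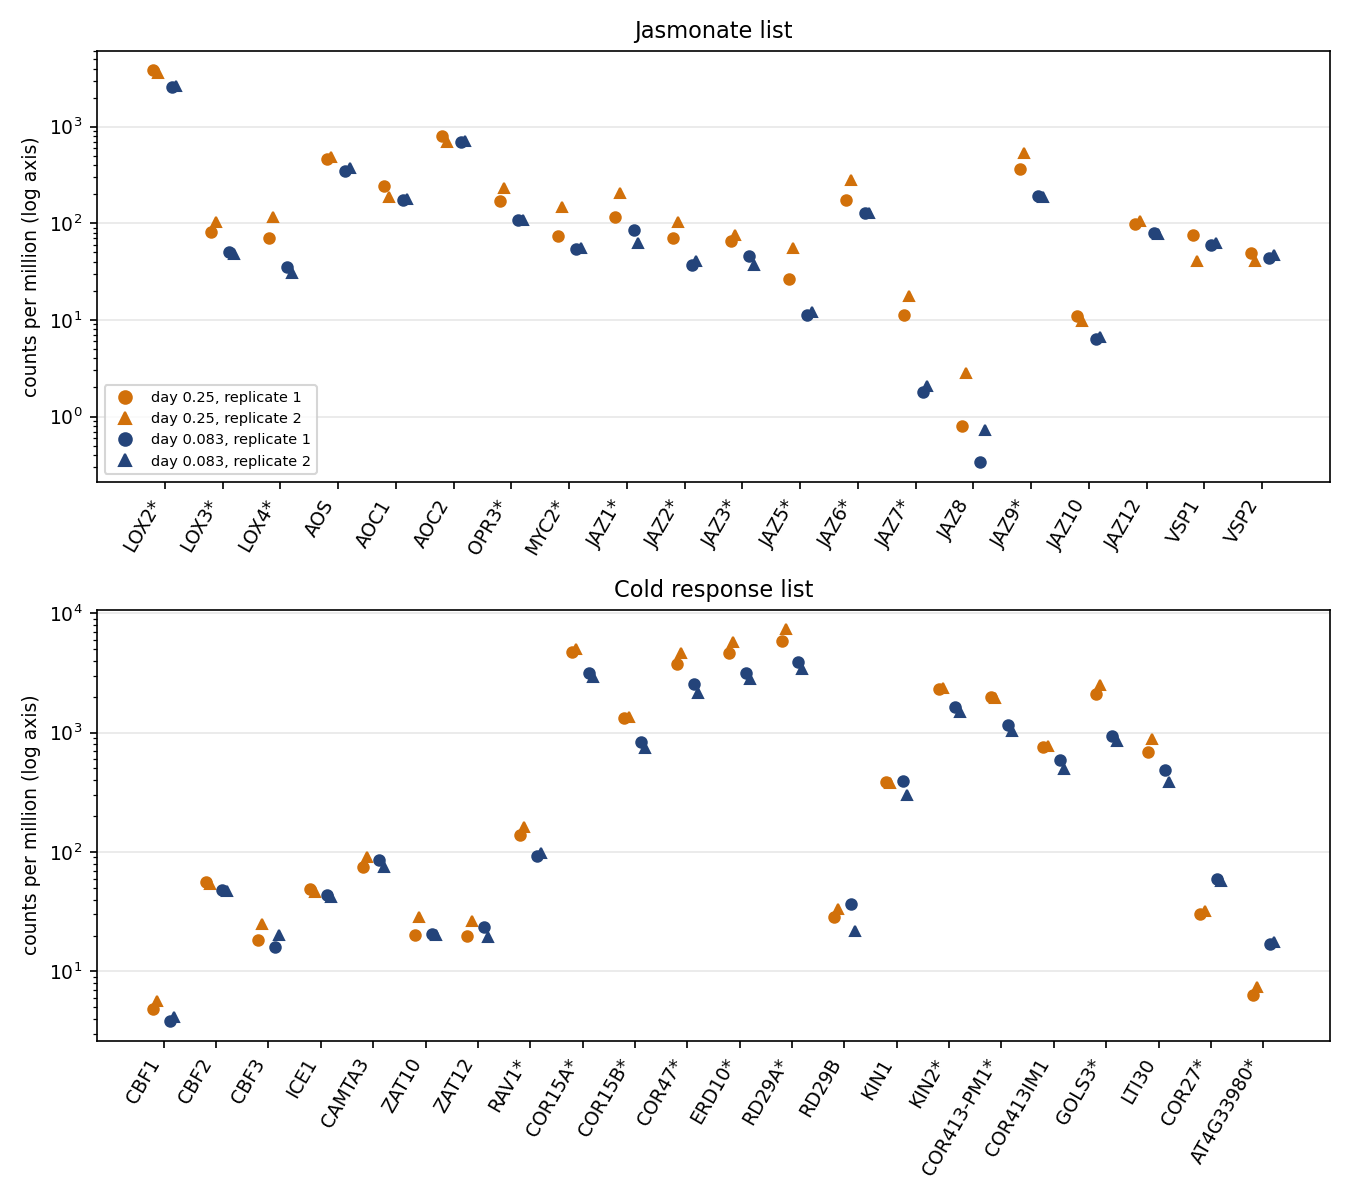
Level of every tested locus of the jasmonate and cold response lists in CPM on a log axis, with day 0.25 (orange) left of day 0.083 (blue), circles for replicate 1 and triangles for replicate 2, and an asterisk for loci past the threshold. Many jasmonate loci show an orange triangle well above the orange circle, as JAZ5 does at 54.9 and 26.3, while the blue points lie close together.

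Glucosinolates are sulfur-rich defence compounds of the cabbage family, and 9 of 22 tested loci of glucosinolate synthesis and sulfate reduction rose while none fell, beside 4.48% higher and 3.14% lower of all loci, with a median log2 change of 0.52. CYP79F2, which starts the synthesis of long-chain aliphatic glucosinolates, had 7.98 and 8.82 CPM at day 0.25, against 2.98 and 4.04 CPM at day 0.083 (log2 change 1.26, SE 0.22, edgeR adjusted p = 0.00814), and is a near copy of CYP79F1. MYB76, a regulator of the aliphatic branch, had 2.8 and 2.71 CPM at day 0.25, against 1.32 and 1.06 CPM at day 0.083 (log2 change 1.21, SE 0.27, adjusted p = 0.0229). SOT17, a sulfotransferase of the last step of the core pathway, had 46 and 48.4 CPM at day 0.25, against 25.2 and 25.4 CPM at day 0.083 (log2 change 0.90, SE 0.13, adjusted p = 0.00306). FMO GS-OX1, which oxidises the side chain, changed by 0.60 (adjusted p = 0.0494). APR1 and APR2, which reduce activated sulfate, changed by 0.59 (adjusted p = 0.0175) and 0.56 (adjusted p = 0.0334). Of the genes of the indolic branch, MYB51 had 6.17 and 9.19 CPM at day 0.25, against 14.2 and 14.1 CPM at day 0.083, and did not pass (adjusted p = 0.168). The count of risers was 4 and 1 without replicate 1 or 2 of day 0.25, and 3 and 2 without replicate 1 or 2 of day 0.083, with SOT17 among them in all 4 fits, and 4 under total counts.

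**Figure D5:**
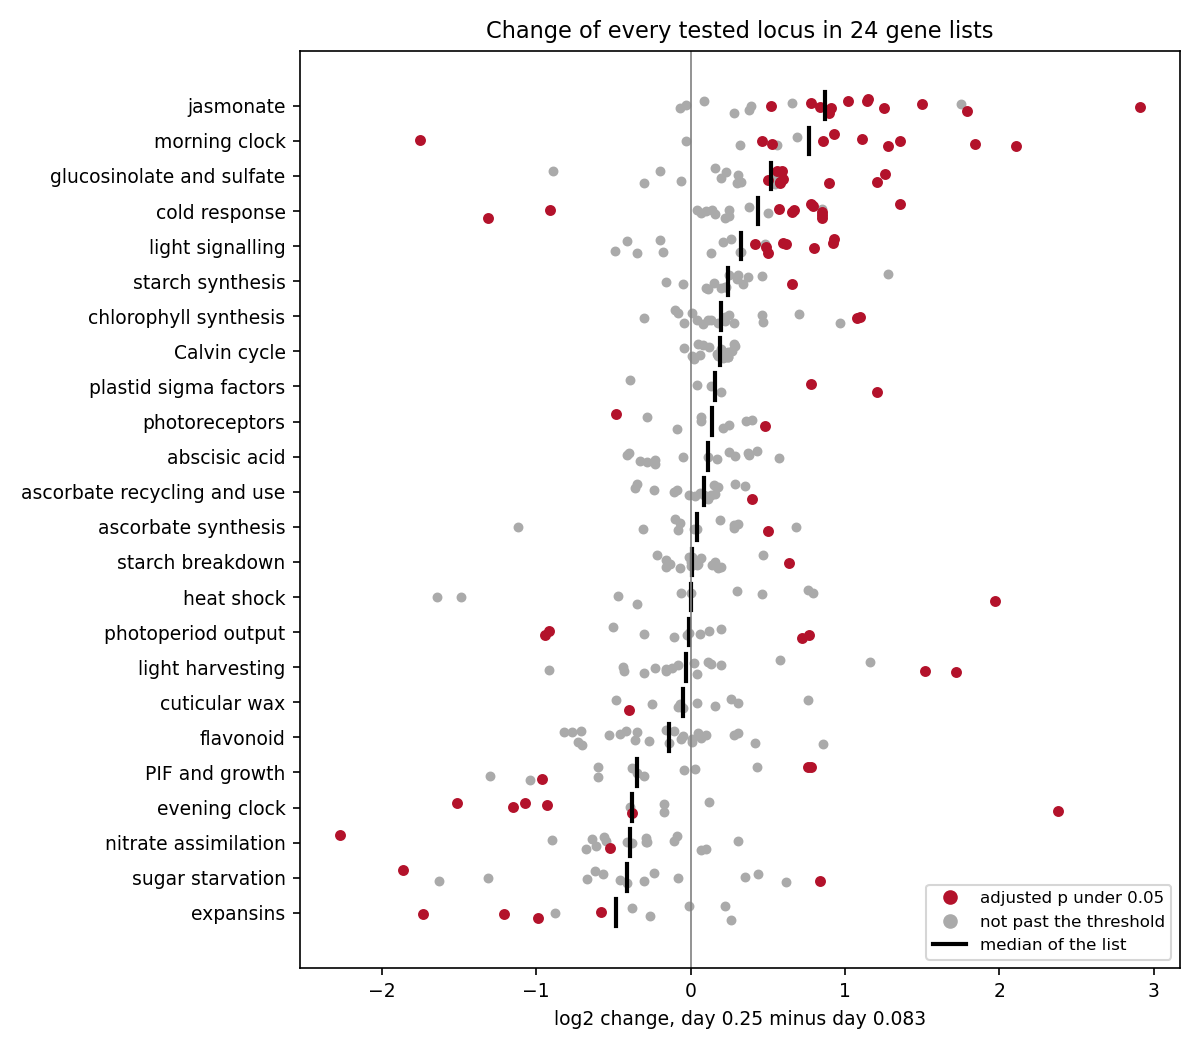
Log2 change, day 0.25 minus day 0.083, of every tested locus in the 24 gene lists, ordered by the list median (black bar), with loci past the threshold in red and the others in grey. Loci with at most 3 counts in each replicate of a group are left out. The jasmonate and morning clock lists lie farthest to the right and the expansins farthest to the left.

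The 12 largest rises among called loci with a mean log2 CPM of at least 3 over the 4 replicates ran from RRTF1 to GOLS1. A locus can reach that mean through day 0.25 alone. RRTF1 and JAZ7 did so, with means of 1.08 and 1.93 CPM at day 0.083. RRTF1, a redox-responsive ERF transcription factor also known as ERF109, had 11.4 and 25.6 CPM at day 0.25, against 1.58 and 0.585 CPM at day 0.083 (log2 change 4.1, SE 0.47, edgeR adjusted p = 0.00143), and other genes overlap it. CML38, a calmodulin-like protein, had 21.4 and 53.5 CPM at day 0.25, against 8.3 and 6.26 CPM at day 0.083 (log2 change 2.36, SE 0.47, adjusted p = 0.0136). CYP94C1, which oxidises the active form of jasmonate, had 24.4 and 58.7 CPM at day 0.25, against 10.2 and 8.63 CPM at day 0.083 (log2 change 2.14, SE 0.33, adjusted p = 0.00477). In all 3 genes replicate 2 of day 0.25 held more than 2 times the level of replicate 1. CBL1, a calcium sensor, had 50.4 and 127 CPM at day 0.25, against 24.5 and 19.7 CPM at day 0.083 (log2 change 2.01, SE 0.35, adjusted p = 0.00807). RGL3, a DELLA protein that interacts with JAZ repressors, had 14.8 and 26.9 CPM at day 0.25, against 5.43 and 4.96 CPM at day 0.083 (log2 change 2.00, SE 0.32, adjusted p = 0.00532). LEA3, of the late embryogenesis abundant family, went the other way between pools, with 55.2 and 36.5 CPM at day 0.25, against 11.7 and 7.38 CPM at day 0.083 (log2 change 2.27, SE 0.34, adjusted p = 0.00414). GOLS1, a second galactinol synthase, had 347 and 440 CPM at day 0.25, against 107 and 94.2 CPM at day 0.083 (log2 change 1.97, SE 0.23, adjusted p = 0.00143). JAZ7, LNK4, AT2G27080, AT1G67856 and AT1G56660 complete the 12, the last of them at 159 and 378 CPM at day 0.25, against 65 and 63.2 CPM at day 0.083. Of the 12, replicate 2 was at least 1.5 times replicate 1 at day 0.25 in 9, with a median log2 ratio of 0.97, against -0.21 between the day 0.083 replicates. RRTF1, JAZ7, LNK4 and GOLS1 kept their calls without any one replicate, and the other 8 lost theirs in at least 1 fit, CML38 in 3.

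The 12 largest falls were spread over several gene families. AT1G62500, annotated as a lipid-transfer family protein, had 1.98 and 4.8 CPM at day 0.25, against 32.1 and 59.6 CPM at day 0.083 (log2 change -3.77, SE 0.66, edgeR adjusted p = 0.00819). GH9B13, a glycosyl hydrolase of the endoglucanase family, averaged 2.78 ± 0.261 CPM at day 0.25, against 16.8 ± 9.62 CPM at day 0.083 (SD, n = 2 each, log2 change -2.59, SE 0.48, adjusted p = 0.0103). AT3G23550, a MATE efflux protein, had 7.06 and 11.4 CPM at day 0.25, against 35 and 45.5 CPM at day 0.083 (log2 change -2.13, SE 0.33, adjusted p = 0.00453), and has a near copy. AT2G26440, a pectin methylesterase inhibitor family member, had 7.06 and 6.66 CPM at day 0.25, against 27.5 and 28 CPM at day 0.083 (log2 change -2.01, SE 0.24, adjusted p = 0.00164). AT2G33830, a dormancy and auxin associated protein, had 31.9 and 36.2 CPM at day 0.25, against 120 and 113 CPM at day 0.083 (log2 change -1.77, SE 0.26, adjusted p = 0.0038). PLA2A, a phospholipase of the patatin family, had 17.1 and 19.4 CPM at day 0.25, against 66.3 and 56.2 CPM at day 0.083 (log2 change -1.75, SE 0.25, adjusted p = 0.00359). WRKY54, a transcription factor of salicylic acid responses, had 7.19 and 9.77 CPM at day 0.25, against 25.2 and 25.7 CPM at day 0.083 (log2 change -1.59, SE 0.17, adjusted p = 0.00109). RVE2, described above, was also among the 12, with AT1G49200, AT1G15125, AT3G61490 and AT4G12500. RVE2, AT3G23550, AT1G49200, AT2G26440, AT2G33830, PLA2A and WRKY54 kept their calls without any one replicate, and the others lost theirs in 2 or 3 of the 4 fits.

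The loci called here were then read in 4 other replicates that took no part in the comparison, day 0.375 against day 0.916, where 19.2% of all tested loci were higher and 18.7% lower. Of the 939 loci that rose at day 0.25, 71.6% were higher at day 0.375 than at day 0.916 and 4.26% were lower, and they made up 16.7% of all loci higher there. Of the 659 that fell, 82.1% were lower at day 0.375 and 3.03% higher, making up 13.8% of all loci lower there. Among the 4 other times 82% of the risers had their highest mean at day 0.375, beside 33.2% of all tested loci, and 48.7% of the fallers had theirs at day 0.916, beside 24.9%. All 9 morning clock risers and all 9 glucosinolate risers were also higher at day 0.375, as were 8 of the 9 cold risers, with RAV1 lower. Of the 12 jasmonate risers 4 were higher at day 0.375 and 1 was lower. CBL1, with 50.4 and 127 CPM at day 0.25, had a mean of 14 CPM at day 0.375 and 21.6 CPM at day 0.916. The whole set of 6 groups shares one estimate of spread, and the day 0.916 replicates differed most from each other of the 6 pairs.

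Of the 90 loci named by the rule used here, 14 have a near copy elsewhere and 30 overlap another annotated gene, and the use of strand in counting is not given in the sources used here. For these the level may include reads of the other gene. In bulk tissue a lower level can mean fewer cells of a type or less RNA per cell, which cannot be told apart.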

How the data were processed

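RNA of Arabidopsis leaves was sequenced on 2 lanes per replicate. The authors' deposited table holds unnormalized read counts, with 1 column for each lane of each replicate. Bowtie2 and TAIR10 are named in the submitters' processing notes, with no role given, and the counting tool is not given in the sources used here. Of counts from 1 to 10, 70.2% are even, as counts of both mates of a pair would be.

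Both lanes of a replicate were added, and 41671 transcripts gave 33602 loci, of which 32835 matched RefSeq TAIR10.1, the source of symbols and promoters. The 12 diurnal replicates were fitted together with edgeR 4.0.16 in R 4.3.3 (TMM, filterByExpr, quasi-likelihood test, Benjamini-Hochberg adjustment over all tested loci). The SE was taken from the F statistic and the log2 change. In simulated counts for 20958 loci, 200 of them changed, 65.5% of the changed loci were recovered, and 4.38% of the calls were false. The changed loci were drawn only from loci above a minimum mean count and given fixed fold changes. All other loci were simulated without a change between groups. The shares recovered and false belong to these simulated counts and not to all tested loci. Sensitivity and error in the real counts, with their differences between pools, were not tested.

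The gene lists, naming rule and alternatives were chosen with earlier results of these data known, so lists are described by counts and medians. Named genes are VTC2 and VTC5, both clock lists, up to 4 called loci with the largest change per other list, and the 12 largest rises and falls among called loci with a mean log2 CPM of at least 3 and replicates that did not overlap. Other list members named, such as HY5, the CBF genes, MYC2 and VSP2, were chosen after their values were seen. Near copies (at least 85% identity over 100 bases) were found with blastn 2.17.0. Lane counts of a replicate spread more than separately counted reads would. Their variance ratio to such reads was 1.96 to 2 in the 12 replicates. Counting precision is therefore lower than the totals of 20418095 to 35859304 per replicate imply. DESeq2 1.42.0 was among the alternatives. In the same file, 4 columns of growth light samples were not used. The promoter of 1 further clock gene is not reported here.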

Additional observations from a re-analysis of the deposited data

How the results depend on the processing

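The 1598 calls of day 0.25 against day 0.083 became 2885 when only the 2 groups were fitted (1551 higher, 1334 lower) and 2699 when day 0.916 was left out (1532 higher, 1167 lower). Under total counts alone 453 loci were higher and 1137 lower. Leaving out each replicate gave 267 to 981 calls, 134 to 652 higher and 101 to 329 lower, 58 to 269 at least doubled and 56 to 154 at least halved, from fewer samples. For day 0.375 against day 0.916, 7949 loci passed, 4713 when only the 2 groups were fitted and 5584 to 7643 without single replicates. RLE size factors, DESeq2, both filters, single lanes, halved counts and the first transcript alone gave 1133 to 2213 calls for day 0.25. Among the named loci VTC5 ran from a log2 change of -0.26 to 0.052 and RVE1 from -0.16 to 0.081 over the fits without a replicate, each above 0 without replicate 2 of day 0.25, and PRR7 was at -0.0024 under total counts; none of them was called, and the cause was not tested. Of the 81 called named loci none turned its sign in any fit without a replicate, and 27 kept the call in all 4. With the replicate number as a block 1200 loci passed, but the numbers share nothing known: correlations of deviations between same-numbered replicates ran from -0.379 to 0.0925, 0.0263 for this pair. The medians of the starch breakdown, both ascorbate, abscisic acid and heat shock lists were at or just above 0 and fell below 0 under total counts.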

Other observations

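Several lists held 1 or no locus past the threshold between these 2 times, beside 7.62% of all loci. Of 18 tested loci of the Calvin cycle none passed edgeR's test, none had an unadjusted p under 0.05, and DESeq2 called none. Of 25 flavonoid loci none passed in the edgeR fit of all 6 groups, 3 had an unadjusted p under 0.05 and DESeq2 called 1. Fitting only the 2 groups called 1 flavonoid locus higher and 8 lower, and total counts alone and leaving out day 0.916 each called 1 lower. The key enzyme gene CHS had 1719 and 1746 CPM at day 0.25, against 1546 and 1745 CPM at day 0.083 (log2 change 0.07, adjusted p = 0.912). Of 15 abscisic acid loci none passed in the edgeR fit of all 6 groups, 3 had an unadjusted p under 0.05, and 1 was higher with DESeq2, with no filter, when only the 2 groups were fitted, without day 0.916 and with the first transcript alone. Among heat shock loci GOLS1 was the single call, and HSP101, a disaggregase, had 9.86 and 7.76 CPM at day 0.25, against 9.96 and 8.41 CPM at day 0.083 (adjusted p = 0.952). In cuticular wax CER26 fell by 0.40 on the log2 scale (edgeR adjusted p = 0.0258), with 68.5 and 63.4 CPM at day 0.25, against 85.2 and 89.1 CPM at day 0.083. Its call was lost whichever replicate was left out, at log2 changes of -0.46 to -0.35. At day 0.375 against day 0.916 CER26 was higher (log2 change 0.26, edgeR adjusted p = 0.045).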
